A study of Homo sapiens with 18 samples.

Results

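The transcripts described here are those of the coactivators YAP and TAZ, of their DNA-binding partners of the TEAD family, and of genes they are known to control. They are 10 of the 57773 genes listed in the deposited table, found by Ensembl identifier: YAP1, WWTR1 (which encodes TAZ), TEAD1, TEAD4, ANKRD1, CYR61 (also CCN1), CTGF (also CCN2), AMOTL1, AMOTL2 and AJUBA. They were measured by sequencing of polyadenylated RNA in RPE1 cells, a telomerase-immortalised human line that comes from the pigment epithelium of the retina. All 6 clones descend from cells kept for 72 h in 2.5 uM ZM447439, an Aurora kinase inhibitor, which lets cells leave mitosis undivided. The populations then grew for weeks before single cells were cloned, and the DNA content of each clone was measured by flow cytometry. The tetraploid clones 4N-1, 4N-2 and 4N-3 were each paired with a diploid clone from the same plates, 2N-1, 2N-2 and 2N-3, so the diploid clones had been through the drug too. Both clones of pair 2 had also been stained with a Hoechst dye before cloning. Each group is 1 clone with 3 libraries (A, B and C), 18 in all, and the labels do not say whether these came from separate cultures. The p-values of a pair therefore weigh the difference of 2 clones against the spread between libraries within all 6 clones, which may be technical.

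YAP and TAZ are the effectors of the Hippo pathway. Its kinases LATS1 and LATS2 phosphorylate both proteins, which keeps them in the cytoplasm, and when the kinases are less active YAP and TAZ enter the nucleus, bind TEAD factors and switch genes on. Cell spreading, tension in the actin cytoskeleton and low cell density are known to raise this output. The control acts mostly on the proteins, so the transcript levels of YAP1 and WWTR1 need not follow the output, which is commonly read from targets such as CTGF, CYR61 and ANKRD1. AMOTL1, AMOTL2 and AJUBA encode regulators of the pathway, and AMOTL2 and AJUBA are also known as targets. LATS2, a target as well, restrains YAP in cells that have failed to divide.

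The TEAD factors recognise the letters GGAATG, which were searched on both strands in the 250 bases before the gene start, in promoter sequences of RefSeq (GRCh38.p14). The table held 10 windows for 7 of the 10 genes, since some genes have several starts, and 5 of the 10 windows (50%) held the letters. Of all 35116 promoter windows of that length, 11.9% held them. The CTGF window held 3 copies, all on the strand of the gene, beginning 169, 104 and 95 bases before the start. Windows with 3 or more copies made up 0.0826% of all, or 29. The CTGF promoter is shown because it held the most copies among these windows and because CTGF changed in pairs 1 and 3, as described below; the letters are in capitals. It covers chr6:131951374-131951622, minus strand, the bases upstream of the first annotated exon.
CTGF: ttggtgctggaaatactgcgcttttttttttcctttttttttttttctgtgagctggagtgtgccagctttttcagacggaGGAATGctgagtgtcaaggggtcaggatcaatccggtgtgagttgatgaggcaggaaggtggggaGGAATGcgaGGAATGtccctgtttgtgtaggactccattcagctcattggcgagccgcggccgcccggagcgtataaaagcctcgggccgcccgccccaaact

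The ANKRD1 window held 2 copies, 220 and 128 bases before the start. Windows with 2 or more copies made up 0.94% of all. Its sites lie at chr10:90921290-90921319 and chr10:90921198-90921227, minus strand. YAP1 had 1 copy at 162 bases (chr11:102110273-102110302, plus strand), and a second start of AJUBA had 1 at 59 bases (chr14:22976884-22976913, minus strand). A second start of AMOTL2 had 1 copy at 69 bases (chr3:134374499-134374528, minus strand) on the opposite strand, where the letters read CATTCC. In GENCODE, the upstream site of ANKRD1 lies in no exon. The second site of ANKRD1 and those of AJUBA and AMOTL2 lie inside exons of the gene itself, and that of YAP1 inside an exon of AP001527.2. The windows of WWTR1 and AMOTL1 held none, which says only that these letters are not in them. Each site is shown as 30 bases in the direction of the gene, to set side by side the bases around the letters. A match of letters is a description and not a bound site.
ANKRD1 upstream site: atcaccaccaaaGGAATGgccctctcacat
ANKRD1 second site: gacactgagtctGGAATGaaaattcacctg
YAP1 site: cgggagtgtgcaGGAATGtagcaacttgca
AJUBA site: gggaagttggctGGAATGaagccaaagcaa
AMOTL2 site: ctgaaactctcaCATTCCtggcatagcagc

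The deposited values are RPKM, and the length they divide by is the genomic span with introns, so whole reads were recovered. Levels are given as reads per M (M, mega) of the library size that the deposited values imply. That size differed from the reads in genes, with 44.9 against 47.4 M in C of 4N-1 and 43.8 against 42.5 M in A of 2N-1. Whether it holds a scaling factor is not stated in the sources used here. The libraries held 37.7 to 55.1 M reads in genes, and the lowest read number of any of the 10 genes in any library was 586 (TEAD4). Levels are means ± SD over 3 libraries of a clone (n = 3). Changes are differences in log2(reads per M + 0.1) of 4N minus 2N with the standard error (SE) of a limma fit. The verbs rose and fell are kept for a Benjamini-Hochberg adjusted p below 0.05 in limma, over all 23416 genes tested. All 10 genes had reads enough to be tested. In such bulk libraries, a change in every cell of a clone and a change in some of its cells cannot be told apart.

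Library A of 2N-3 stood apart. Against the other 2 libraries of its clone it was higher by 0.48 (log2, median) over the coding genes with the shortest exon sequence (up to 3428 bases) and lower, at -0.49, over those with the longest (from 7779 bases), each 1 of 4 classes of exon length. The difference of longest minus shortest class, -0.96, lay between -0.14 and 0.11 in the 15 libraries of the other clones. TEAD1, AMOTL1 and WWTR1 belong to the longest class. This library was lower for them than B and C of 2N-3, by log2 differences of -1.24, -0.79 and -0.48. YAP1 (6296 exon bases), AMOTL2 (5984) and AJUBA (5979) belong to the class below, whose median was -0.22. They differed by -0.85, -0.51 and -0.21, so YAP1 was well below the median of its class. The short genes CYR61, CTGF and ANKRD1 differed there by 0.23, 0.11 and -0.15. Since all clones share 1 estimate of the spread, this library also widens the error of genes such as YAP1 and TEAD1 in pairs 1 and 2. Library C of 4N-3 was lower than A and B of its clone for TEAD4 (-0.65) and ANKRD1 (-0.40).

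**Figure D1:**
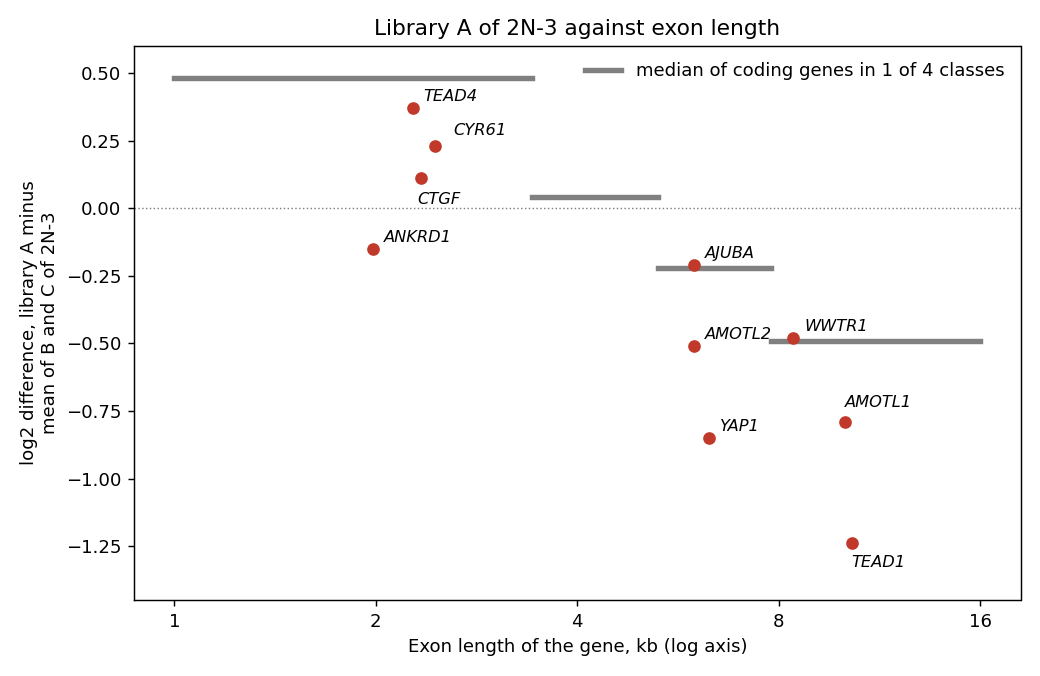
Difference of library A of 2N-3 from the mean of libraries B and C of that clone (log2, vertical axis) against the exon length of the gene in kb (log axis), for the 10 genes (red) and as the median of coding genes in each of 4 classes of exon length (grey bars, cut at the edges of the axis). TEAD1 (-1.24), YAP1 (-0.85) and AMOTL1 (-0.79) lie lowest, and the short genes lie between -0.15 (ANKRD1) and 0.37 (TEAD4).

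The cells expressed part of the pigment epithelium programme. MITF (14.8 to 23.3 reads per M over the libraries), OTX2 (21.6 to 46.5), PAX6 (36.5 to 109), KRT8 and KRT18 were present. RPE65, RLBP1 and TYR stayed at or below 0.567, 0.177 and 0.0482. PMEL was also low (0.279 to 0.936), as was BEST1 (1.17 to 7.48). The summed level of the 10 markers ran from 641 to 663 in 2N-1, 868 to 886 in 4N-1, 661 to 724 in 2N-2, 782 to 839 in 4N-2, 658 to 1021 in 2N-3 and 652 to 738 in 4N-3. Most of that sum was KRT8 and KRT18. In pair 1 these keratin genes rose, from 211 to 284 and from 265 to 440, as did RPE65 at its low level. None of the 8 markers tested fell there with all libraries. Without library A of 2N-3, OTX2 (-0.33, limma adjusted p = 0.0379) and MITF (-0.19, limma adjusted p = 0.0398) fell in pair 1, where 16.4% of all genes fell. In pair 2 KRT8 and KRT18 rose too, from 261 to 344 and from 275 to 369, with BEST1. Another 4 markers fell, among them the eye transcription factors PAX6 (93.0 to 45.0) and OTX2 (45.0 to 26.9). None of the 8 passed in pair 3. Of all genes tested, 9.88% rose and 9.15% fell in pair 1, 19.9% and 21.3% in pair 2, and 3.57% and 3.14% in pair 3. Among 7 matched markers of other cell types, PTPRC, CDH5, EPCAM, ALB, DES and COL2A1 were at most at 0.312 in any library. TUBB3, a tubulin of neurons and of many cultured lines, was at 92.7 to 225, and fell in pair 1 from 154 to 94.5 (-0.70 on the log2 scale). The part of these marker levels in the results below was not tested.

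Per kilobase of exon, the secreted and nuclear target transcripts were the most abundant of the 10. ANKRD1 had a mean of 271 reads per M and kb over the 6 clones, CYR61 133 and CTGF 92.9. YAP1 stood at 37.4, TEAD1 at 21.9, AMOTL2 at 20.1, WWTR1 at 19.3, AJUBA at 16.1, AMOTL1 at 12.3 and TEAD4 at 8.31. On this scale YAP1 transcripts were more abundant than those of WWTR1, and TEAD1 more than TEAD4. The scale divides by all annotated exon bases of a gene, and the length of the transcripts expressed was not measured. All further levels are reads per M, which compare clones within a gene.

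In pair 1, 4 of the 10 genes rose in 4N-1 (ANKRD1, CTGF, CYR61 and AJUBA) and 1 fell (TEAD4). Of all genes tested, 9.88% rose and 9.15% fell. The 3 targets ANKRD1, CTGF and CYR61 rose 2-fold or more, as did 1.96% of all genes, and none of the 10 fell 2-fold (2.25%). In all 10 genes the libraries of 4N-1 and 2N-1 did not overlap: 8 lay higher in 4N-1 (26.3% of all genes) and 2 lower (23.5%). The median change was 0.21, against 0.02 over all genes. YAP1 and AMOTL2 were added without library A of 2N-3, so that 6 rose and 1 fell, where 18.1% of all genes rose and 16.4% fell.

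Pair 2 had another set. AMOTL2, AJUBA and AMOTL1 rose in 4N-2, and CYR61 and WWTR1 fell, 3 and 2 of 10, where 19.9% of all genes rose and 21.3% fell. AMOTL2 was the only one of the 10 to rise 2-fold or more (6.06% of all genes), and none fell 2-fold (6.73%). Libraries did not overlap in 4 genes that lay higher (29.8% of all genes) and 3 that lay lower (31.0%). The median change was 0.13, against -0.02 over all genes. Without library A of 2N-3, YAP1 and CTGF were added to those that rose and TEAD1 to those that fell, 5 and 3 of 10, where 26.4% of all genes rose and 27.9% fell.

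In pair 3 none of the 10 rose and 2 fell, CYR61 and CTGF, where 3.57% of all genes rose and 3.14% fell. None changed 2-fold (0.991% of all genes higher and 1.36% lower). At an unadjusted p below 0.05 in limma, 3 were higher in 4N-3 (YAP1, TEAD1 and AMOTL1) and 3 lower, and limma-voom on the recovered reads also gave 0 that rose. The share of all genes below that unadjusted p in pair 3 was not counted. Without library A of 2N-3 the changes of YAP1, TEAD1 and AMOTL1 were 0.07, 0.05 and 0.10. Libraries lay higher without overlap in 1 gene (10.3% of all genes) and lower in 3 (8.13%). The median change was -0.03, against 0.01 over all genes. Again 0 rose and the same 2 fell without library A of 2N-3, where 3.89% of all genes rose and 3.24% fell.

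**Figure D2:**
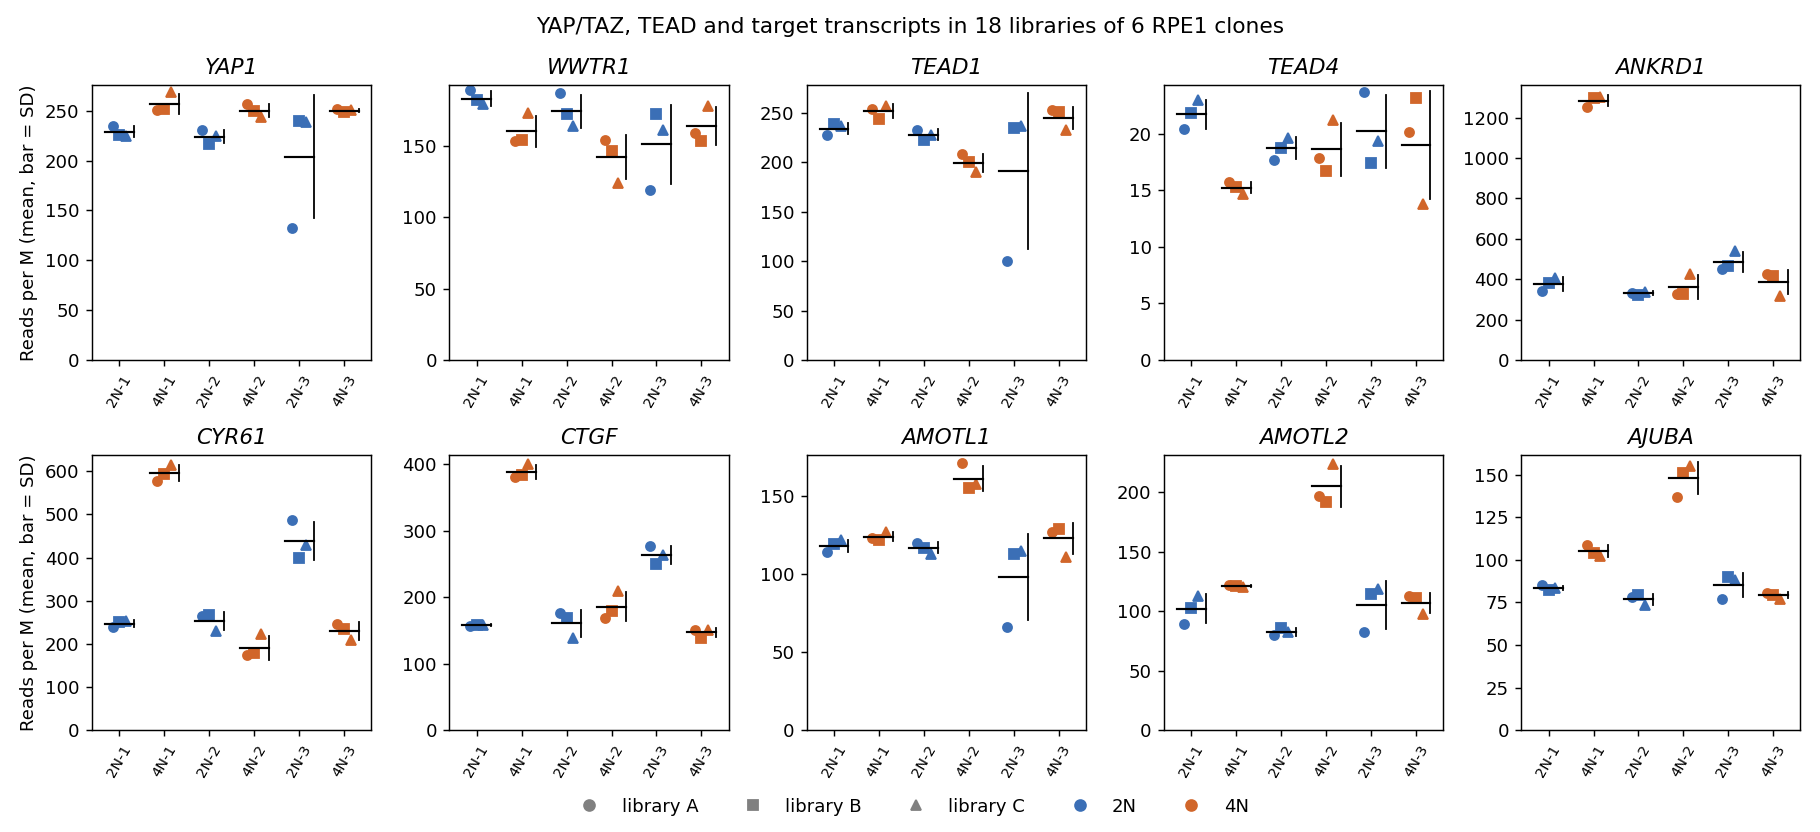
Reads per M (linear axes from 0) of the 10 genes in the 18 libraries, by clone (2N blue, 4N orange; circle, square and triangle are libraries A, B and C), with the mean of a clone as a line and its SD as a bar. ANKRD1, CYR61 and CTGF are highest in 4N-1 (means 1284, 596 and 389) and AMOTL1, AMOTL2 and AJUBA in 4N-2 (161, 205 and 148).

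ANKRD1 encodes a nuclear protein with ankyrin repeats that responds to mechanical load, and was the most changed of the 10. The gene (ENSG00000148677) lies on chromosome 10, 90912096 to 90921276 in GRCh38, minus strand. Libraries A, B and C had 340, 382 and 405 reads per M in 2N-1 and 1253, 1295 and 1303 in 4N-1. The lowest library of 4N-1 was thus far above the highest of 2N-1, and above every other library of the series. From 376 ± 32.8 to 1284 ± 27.1 (SD, n = 3) reads per M, the rise was 1.78 (SE 0.12, limma adjusted p = 1.71e-08), or 3.43-fold. In pair 2 the values were 334, 321 and 338 in 2N-2 and 326, 326 and 428 in 4N-2. Only library C of 4N-2 was above the diploid range, and the change of 0.11 did not pass (limma adjusted p = 0.512, 95% interval -0.15 to 0.37). In pair 3 they were 452, 464 and 540 in 2N-3 and 424, 414 and 318 in 4N-3. The tetraploid libraries all lay below the diploid ones there, but the change of -0.34 did not pass (limma adjusted p = 0.113), nor without library A of 2N-3 (-0.39, limma adjusted p = 0.0672).

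CYR61 encodes a secreted matrix protein that binds integrins, and was the gene of the 10 that passed in every pair, with opposite signs. It lies on chromosome 1, 85580761 to 85583962, plus strand (ENSG00000142871). It rose from 238, 250 and 254 reads per M in 2N-1 to 578, 594 and 615 in 4N-1, a change of 1.27 (SE 0.10, limma adjusted p = 1.75e-07). It fell from 265, 266 and 229 in 2N-2 to 173, 179 and 223 in 4N-2 (-0.41, SE 0.10, limma adjusted p = 0.00429). The groups of pair 2 lay close, with C of 4N-2 just under C of 2N-2. In pair 3 CYR61 fell from 486, 398 and 429 to 247, 235 and 208 (-0.92, SE 0.10, limma adjusted p = 1.12e-05), and by -0.85 without library A of 2N-3 (limma adjusted p = 1.11e-05). The level of 4N-3, 230 ± 20.0 (SD, n = 3), was near those of 2N-1 (247 ± 8.44) and 2N-2 (253 ± 20.9), and it was 2N-3, at 438 ± 44.4, that stood above the other diploid clones.

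CTGF, a secreted relative of CYR61 and a mediator of matrix deposition, had the same 2 high clones. It lies on chromosome 6, 131948176 to 131951373, minus strand (ENSG00000118523). It rose from 156, 159 and 158 reads per M in 2N-1 to 381, 384 and 401 in 4N-1 (1.30, SE 0.09, limma adjusted p = 3.68e-08). The 3 diploid values were nearly equal and every tetraploid value was over 2-fold higher. The values were 176, 169 and 138 in 2N-2 and 169, 180 and 210 in 4N-2. Those ranges overlapped, and the change of 0.21 did not pass (SE 0.09, limma adjusted p = 0.0809), though it did without library A of 2N-3 (limma adjusted p = 0.0352), A of 2N-2 (0.28, limma adjusted p = 0.0457) or A of 4N-2 (0.28, limma adjusted p = 0.0413). In pair 3 CTGF fell from 277, 250 and 263 to 151, 139 and 151 (-0.84, SE 0.09, limma adjusted p = 9.97e-06), and by -0.80 without library A of 2N-3 (limma adjusted p = 1.03e-05). A gene on the opposite strand, AL133346.1, shares 195 exon bases with CTGF and had 8 to 46 reads per library, against at least 5704 for CTGF.

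**Figure D3:**
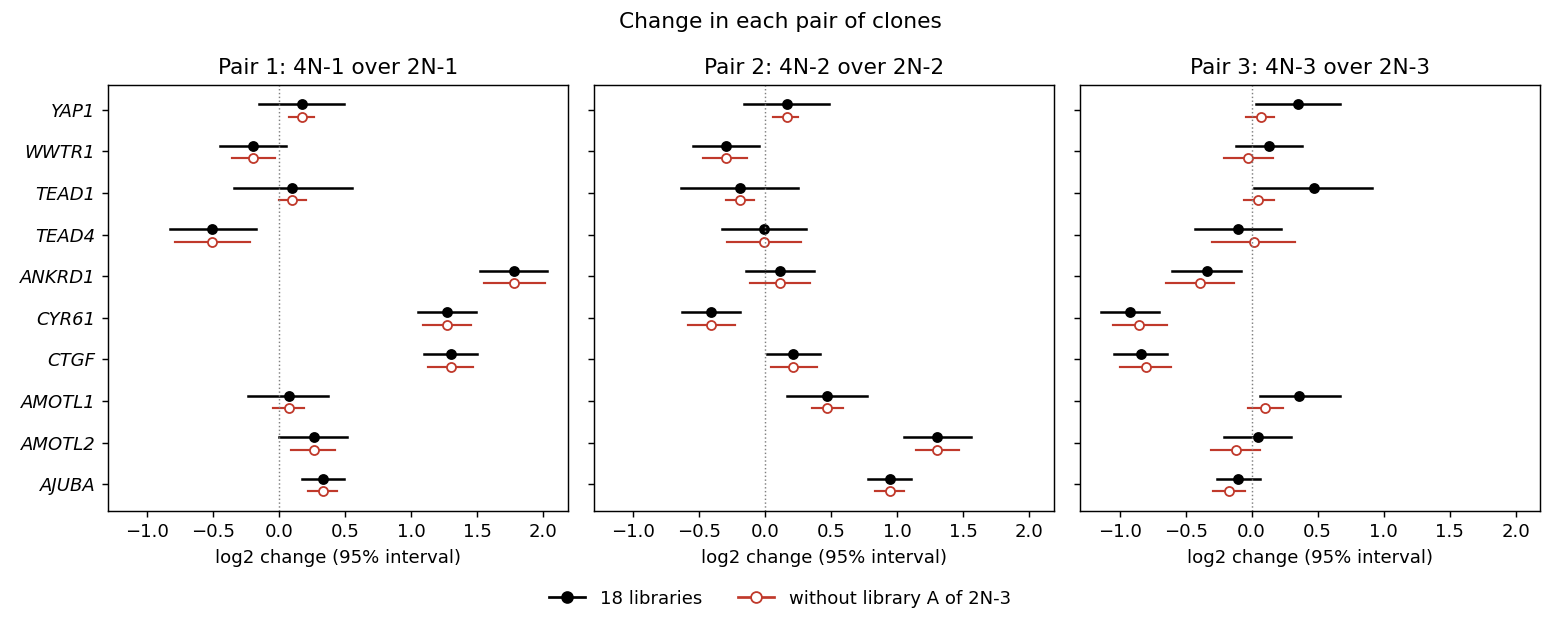
Change of each gene in the 3 pairs (log2, 4N minus 2N; points are estimates of the limma fit and lines their 95% intervals), with all 18 libraries (black) and without library A of 2N-3 (red, open). ANKRD1, CYR61 and CTGF lie at 1.78, 1.27 and 1.30 in pair 1 and at -0.34, -0.92 and -0.84 in pair 3, and the intervals of YAP1 and TEAD1 narrow without that library.

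AMOTL2 encodes a scaffold of cell junctions that binds YAP. It lies on chromosome 3, 134355874 to 134375479, minus strand (ENSG00000114019). In pair 2 it rose from 79.8, 86.2 and 82.3 reads per M in 2N-2 to 197, 192 and 224 in 4N-2 (1.30, SE 0.12, limma adjusted p = 1.45e-07), or 2.47-fold. All 3 values of 4N-2 lay above all other libraries of the series. In pair 1 the values were 88.9, 103 and 113 against 122, 121 and 120, without overlap. That change of 0.26 did not pass with all libraries (limma adjusted p = 0.155) and passed without library A of 2N-3 (limma adjusted p = 0.0166). In pair 3 they were 82.1, 114 and 119 against 113, 111 and 97.8, with overlap and a change of 0.05 (limma adjusted p = 0.835; -0.12 without library A of 2N-3, limma adjusted p = 0.524). RPL39P5, a pseudogene of a ribosomal protein that overlaps AMOTL2 on the same strand, was listed with 727 to 1952 reads per library, and how reads of the shared 187 bases were assigned is not stated in the sources used here.

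AJUBA encodes a LIM-domain protein of junctions that binds LATS kinases and restrains them. It lies on chromosome 14, 22971174 to 22982642, minus strand (ENSG00000129474). In pair 2 it rose from 78.3, 79.2 and 73.3 to 137, 151 and 155 reads per M (0.94, SE 0.07, limma adjusted p = 2.07e-08), or 1.92-fold. In pair 1 it rose from 85.0, 82.2 and 83.3 to 109, 104 and 102 (0.33, SE 0.07, limma adjusted p = 0.00468). In neither pair did the ranges overlap, and the values of 4N-2 were above those of 4N-1. In pair 3 the values were 77.0, 89.9 and 88.2 against 80.8, 79.5 and 77.3, which overlapped (-0.10, limma adjusted p = 0.428). The gene AL132780.3 shares 50 exon bases with AJUBA on the same strand. It had 4028 to 8016 reads per library, where the lowest library of AJUBA had 2781. How reads of those shared bases were assigned is not stated in the sources used here.

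AMOTL1, the relative of AMOTL2, rose in pair 2 from 117 ± 3.55 to 161 ± 8.09 (SD, n = 3) reads per M (0.47, SE 0.15, limma adjusted p = 0.0157). The libraries were at 120, 117 and 113 in 2N-2 and 171, 155 and 158 in 4N-2, without overlap. The call ended without library A of 4N-2 (limma adjusted p = 0.0574). Its changes of 0.07 in pair 1 and 0.36 in pair 3 did not pass (limma adjusted p = 0.811 and 0.156). In 2N-3 the values were 66.1, 113 and 115, so the low level was that of library A, and the change in pair 3 was 0.10 without it (limma adjusted p = 0.456). Without library C of 2N-3 that change was 0.50 and passed (limma adjusted p = 0.0372).

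YAP1, the coactivator gene itself, moved little. It lies on chromosome 11, 102110461 to 102233423, plus strand (ENSG00000137693). Its libraries had 235, 226 and 225 reads per M in 2N-1 against 251, 252 and 269 in 4N-1. They had 231, 217 and 225 in 2N-2 against 257, 250 and 244 in 4N-2, and 132, 240 and 239 in 2N-3 against 252, 249 and 251 in 4N-3. All 9 tetraploid libraries thus lay above all 9 diploid ones, with a narrow gap from 240 to 244, as for 1.25% of all genes tested. YAP1 was the 1 gene of the 10 so placed, and none lay lower in all 9 (0.542% of all genes). The changes of 0.17, 0.16 and 0.35 did not pass (limma adjusted p = 0.501, 0.444 and 0.187). Without library A of 2N-3 the SE in pair 1 went from 0.15 to 0.04, and YAP1 rose in pair 1 (0.17, 1.12-fold, limma adjusted p = 0.00715) and pair 2 (0.16, 1.11-fold, limma adjusted p = 0.00650). The change in pair 3 without it was 0.07 (limma adjusted p = 0.549, 95% interval -0.04 to 0.17). Without library C of 2N-3 it was 0.49 and passed (limma adjusted p = 0.0476).

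WWTR1, on chromosome 3 (149517235 to 149736714, minus strand), fell in pair 2 from 187, 172 and 164 to 154, 146 and 124 reads per M (-0.30, SE 0.12, limma adjusted p = 0.0492). The ranges did not overlap, but the call was at the threshold and ended in 13 of 18 fits that left out 1 library, all but those without C of 4N-3, A of 4N-2 or any library of 2N-3. The limma adjusted p ran from 0.00333 to 0.219 over the 18, and was 0.0697 with the library letter as a block. In pair 1 the values were 189, 182 and 179 against 153, 154 and 173, also without overlap, and the change of -0.20 did not pass (limma adjusted p = 0.281). In pair 3 the change was 0.13 (limma adjusted p = 0.510), and -0.03 without library A of 2N-3 (limma adjusted p = 0.921). The antisense gene WWTR1-AS1 had 15 to 44 reads per library.

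Of the DNA-binding partners, TEAD4 fell in pair 1 and TEAD1 passed in no pair. TEAD4 (chromosome 12, 2959330 to 3040673, plus strand) went from 20.4, 21.8 and 23.0 reads per M in 2N-1 to 15.7, 15.3 and 14.7 in 4N-1 (-0.51, SE 0.15, limma adjusted p = 0.0267). The ranges did not overlap. The call ended in 5 of 18 fits without 1 library, those without B or C of 2N-1 or without A, B or C of 4N-1 (limma adjusted p from 0.0607 to 0.102). In pair 2 its change was -0.01 and in pair 3 -0.10, where 4N-3 was spread from 13.8 to 23.1. Without library A of 2N-3 the change in pair 3 was 0.02 (limma adjusted p = 0.972). TEAD1 (chromosome 11, 12674591 to 12944483, plus strand) had changes of 0.10, -0.19 and 0.47 (limma adjusted p = 0.799, 0.498 and 0.203). Its libraries were at 233, 222 and 228 in 2N-2 against 208, 200 and 190 in 4N-2, without overlap, and without library A of 2N-3 TEAD1 fell in pair 2 (-0.19, limma adjusted p = 0.00263). That library had 99.8 reads per M of TEAD1 against 235 and 237 in B and C, and without it the change in pair 3 was 0.05 (limma adjusted p = 0.675). Without library C of 2N-3 that change was 0.68 and passed (limma adjusted p = 0.0455).

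The change differed between the pairs for 5 of the 10 genes in a moderated F test of the same fit, as for 41.4% of all genes: ANKRD1, CYR61, CTGF, AMOTL2 and AJUBA. Pair 1 exceeded pair 3 by 2.12 for ANKRD1, 2.19 for CYR61 and 2.14 for CTGF on the log2 scale (10.2% of all genes passed for this difference). For AMOTL2 and AJUBA it was pair 2 that exceeded pair 3, by 1.26 and 1.04 (30.3% of all genes passed), and pair 1 by 1.05 and 0.61 (36.4% passed for pairs 1 and 2). CTGF and CYR61 also differed between pairs 2 and 3 (limma adjusted p = 1.34e-05 and 0.0144), and ANKRD1 did not pass there (limma adjusted p = 0.0577). Without library A of 2N-3 the F test passed for 8 genes, with TEAD1 (limma adjusted p = 0.00322), TEAD4 (limma adjusted p = 0.0454) and AMOTL1 (limma adjusted p = 7.46e-04) added. The share of all genes that passed the F test without that library was not counted. More of all genes passed in pairs 1 and 2 without it (18.1% rose in pair 1, against 9.88% with it).

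With the clone as the replicate, 3 tetraploid against 3 diploid, none of the 10 genes passed in limma (adjusted p from 0.992 to 0.996), and none was below 0.05 unadjusted. None of the 23416 genes passed (0% higher and 0% lower in 4N), and 1067 (4.56%) were below 0.05 unadjusted. Changes over the clones lay between -0.21 (TEAD4) and 0.54 (AMOTL2). The 95% interval was -0.52 to 1.55 for ANKRD1, -1.08 to 1.03 for CYR61 and -0.77 to 1.22 for CTGF, so that a change of 2-fold in either direction was within it for CYR61.

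The order of the clone means shows which clones carried these differences. ANKRD1, CYR61 and CTGF were highest in 4N-1 and second in 2N-3, and the libraries of neither clone overlapped with the next in the order. Below them, libraries of neighbouring clones overlapped, except that the CTGF libraries of 4N-3 and 2N-1, the 2 lowest clones, did not. AMOTL1, AMOTL2 and AJUBA were highest in 4N-2 and second in 4N-1, and the libraries of these 2 clones did not overlap. The libraries of 4N-1 also lay clear of the next clone for AMOTL2 and AJUBA, but not for AMOTL1. For WWTR1 all 5 neighbours in the order overlapped, and for YAP1, TEAD1 and TEAD4 4 of 5 did. The highest clone mean was 3.88 times the lowest for ANKRD1, 3.11 for CYR61, 2.65 for CTGF, 2.47 for AMOTL2, 1.92 for AJUBA and 1.64 for AMOTL1. The corresponding ratios were 1.26 for YAP1, 1.29 for WWTR1, 1.32 for TEAD1 and 1.42 for TEAD4.

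**Figure D4:**
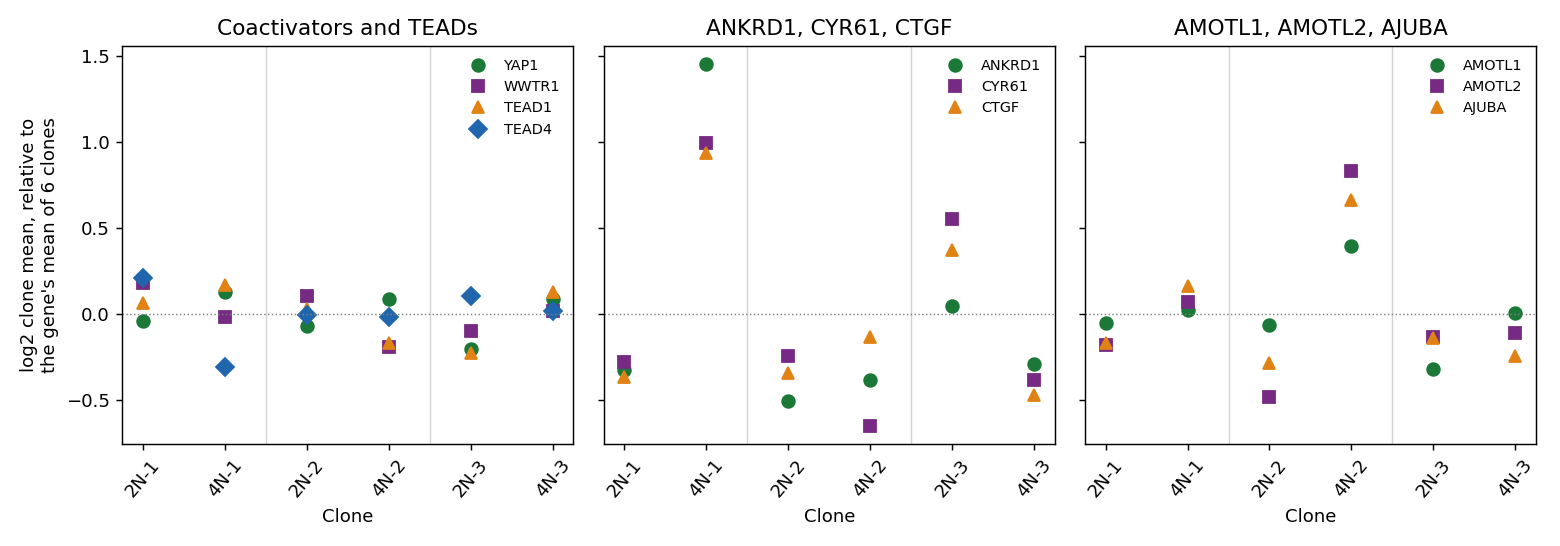
Clone means of the 10 genes (log2 of reads per M, relative to the mean of the 6 clones for that gene), for the coactivators and TEADs, for ANKRD1, CYR61 and CTGF, and for AMOTL1, AMOTL2 and AJUBA. In 4N-1 the second set lies at 1.45, 0.99 and 0.93, and in 4N-2 the third set lies at 0.40, 0.83 and 0.66.

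As a description over 6 clone means that share these libraries, Pearson's r among ANKRD1, CYR61 and CTGF was 0.88 to 0.92, and among AMOTL1, AMOTL2 and AJUBA 0.78 to 0.96. Between the 2 sets it was -0.53 to 0.29. The 3 targets had r of -0.38 to 0.31 with YAP1, WWTR1 and TEAD1, and -0.78 to -0.53 with TEAD4. The genes with the most similar pattern among 2045 candidates were found by the same r over 6 clone means. For ANKRD1 these were RPL32P29 (0.966), XBP1 (0.946) and PPP1R3B (0.944). For CYR61 they were SELENOM (0.984), RPL32P29 (0.954) and MIR222HG (0.953), and for CTGF NNMT (0.923), ANKRD1 (0.920) and FAM84B (0.915). RPL32P29 is a pseudogene of a ribosomal protein, whose reads may be shared with its parent gene.

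Among the 33 genes of the upstream Hippo pathway and other TEAD cofactors, 32 could be tested. TEAD3 was the 1 gene that rose in pair 1, where 0 fell by limma and 0 by limma-voom. At an unadjusted p below 0.05 in limma, 3 were higher in 4N-1 and 1 lower, and that share of all genes was not counted. Pair 2 had 8 that rose and 8 that fell, and pair 3 had 1 of each, WWC1 and TEAD2. Of all genes tested, 9.88% rose and 9.15% fell in pair 1, 19.9% and 21.3% in pair 2, and 3.57% and 3.14% in pair 3. The medians of the list were 0.04, 0.04 and 0.19. Without library A of 2N-3 they were 0.04, 0.04 and -0.01, and the counts were 7 and 2, 13 and 12, and 1 and 1, where 18.1% and 16.4%, 26.4% and 27.9%, and 3.89% and 3.24% of all genes rose and fell. The gene that then rose in pair 3 was RASSF1 in place of WWC1. The rises in pair 2 numbered 4 without C of 2N-2 or C of 4N-2, 5 without A or B of 2N-2, and 3 on log2(RPKM + 0.5), where 3 fell. In pair 3, 0 rose in 12 of the 18 fits that left out 1 library, and 0 rose and 0 fell with only the libraries of the pair.

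The TEAD genes outside the 10 moved in different directions. TEAD3 rose in pair 1 from 34.7 to 50.5 reads per M (0.54, SE 0.09, limma adjusted p = 3.18e-04) and fell in pair 2 (-0.38, limma adjusted p = 0.00229). TEAD2 fell in pair 2 from 40.9 to 27.6 (-0.57, limma adjusted p = 1.14e-05) and in pair 3 from 45.0 to 35.0 (-0.36, limma adjusted p = 0.00678). With only the 6 libraries of pair 3, 0 genes of the Hippo list fell, so TEAD2 did not pass in that fit. In pair 1 TEAD2 changed by -0.20, which passed without library A of 2N-3 (limma adjusted p = 0.0822 with it and 0.00611 without). Its 9 tetraploid libraries lay below its 9 diploid ones, and those of MYOF, of the target list below, lay above. These were the 2 genes of the wider lists so placed, and the placing was looked for after the values of YAP1 were seen. The lists had 32 and 25 genes tested, with LATS2 and PTPN14 in both. Of all genes, 1.25% lay higher in all 9 tetraploid libraries and 0.542% lower.

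Several genes that restrain YAP rose in 4N-2. WWC1, whose product KIBRA activates the LATS kinases, went from 14.6 to 36.0 reads per M in pair 2 (1.30, SE 0.13, limma adjusted p = 3.60e-07), and from 14.2 to 19.8 in pair 3 (0.46, limma adjusted p = 0.0404; 0.0572 without library A of 2N-3). NF2, which encodes the tumour suppressor Merlin, went from 46.3 to 78.0 in pair 2 (0.75, SE 0.12, limma adjusted p = 5.87e-05), and RASSF1, a scaffold of the MST kinases, from 18.1 to 31.3 (0.78, SE 0.20, limma adjusted p = 0.00390). In pair 3 RASSF1 changed by 0.43, which did not pass (limma adjusted p = 0.209), and rose without library A of 2N-3 (0.68, limma adjusted p = 0.0170). Others of that role fell there. VGLL4, which competes with YAP for TEADs, went from 138 to 75.3 (-0.88, SE 0.13, limma adjusted p = 4.00e-05), and the cadherin genes FAT4 and DCHS1 fell by 0.92 and 1.48, DCHS1 from 0.729 to 0.195 reads per M. The kinase gene LATS2 had changes of 0.20, 0.07 and 0.31 that did not pass (limma adjusted p = 0.312, 0.705 and 0.159), and rose in pair 1 without library A of 2N-3 (0.20, limma adjusted p = 0.0105).

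Of 25 other genes known as targets of YAP and TAZ, pair 1 had 10 that rose and 4 that fell, and pair 2 had 13 and 7. Pair 3 had 2 that rose and 0 that fell, and limma-voom also gave 0 that fell. At an unadjusted p below 0.05 in limma, 9 were higher in 4N-3 and 2 lower. The share of all genes below that unadjusted p in pair 3 was not counted. The medians were 0.21, 0.52 and 0.22, against 0.02, -0.02 and 0.01 over all genes. The shares of all genes that rose and fell were 9.88% and 9.15%, 19.9% and 21.3%, and 3.57% and 3.14%. Without library A of 2N-3 the counts were 15 and 5, 14 and 8, and 1 and 0, the shares of all genes those given above for the Hippo list, and the median in pair 3 was 0.01. Leaving out C of 2N-3 gave 7 that rose in pair 3, and leaving out C of 4N-3 gave 1. Of these genes, 5 rose in both pair 1 and pair 2: F3, CRIM1, GADD45A, TGM2 and EDN1. Another 4 rose in pair 1 and fell in pair 2 (TGFB2, RBMS3, THBS1 and BMP4), and 4 fell in pair 1 and rose in pair 2 (AXL, IGFBP3, FOXF2 and BIRC5). These genes are named by this crossing, chosen after their values were seen. How many of all genes crossed in these ways was not counted, so the numbers cannot be set against all genes.

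In pair 1 the largest rises of this list were those of EDN1, CCDC80 and TGFB2. EDN1, which encodes the vasoconstrictor endothelin, went from 2.78 to 9.06 reads per M (1.67, SE 0.16, limma adjusted p = 1.18e-06). CCDC80, a matrix protein gene, went from 369 to 1123 (1.61, SE 0.15, limma adjusted p = 6.10e-07), and the growth factor gene TGFB2 from 108 to 293 (1.44, SE 0.12, limma adjusted p = 2.11e-07). The largest falls were those of BIRC5, which encodes survivin of the chromosomal passenger complex (108 to 41.7, -1.37, SE 0.16), of IGFBP3 (27.8 to 12.7, -1.12, SE 0.13) and of the receptor kinase gene AXL (469 to 350, -0.42, SE 0.11).

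In pair 2 IGFBP3, which encodes a binding protein of insulin-like growth factors, had the largest rise of the list, from 30.5 to 142 reads per M (2.21, SE 0.13, limma adjusted p = 4.48e-10). EDN1 went from 2.14 to 5.11 (1.21, SE 0.16) and AXL from 453 to 1007 (1.16, SE 0.11). The growth factor gene BMP4 fell from 32.4 to 10.1 (-1.66, SE 0.12, limma adjusted p = 8.73e-09), the matrix protein gene THBS1 from 3363 to 1848 (-0.87, SE 0.18), and NT5E, an ectoenzyme gene, from 552 to 335 (-0.72, SE 0.09).

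TGM2, which encodes a transglutaminase that crosslinks matrix proteins, rose in all 3 pairs in the fit of all 18 libraries. Pair 1 took it from 2035 to 4347 reads per M (1.10), and pair 2 from 1204 to 1838 (0.62). The diploid level in pair 3 was 1170 and the tetraploid one 2198 (0.90, SE 0.13, limma adjusted p = 1.72e-04; 0.84 without library A of 2N-3, limma adjusted p = 1.92e-04). The other gene of the list that rose in pair 3, CCDC80 (364 to 538, 0.54, limma adjusted p = 0.0342), did not pass without that library (0.45, limma adjusted p = 0.0833). With only the 6 libraries of pair 3, 0 genes of the list rose, so neither TGM2 nor CCDC80 passed in that fit. The share of all genes that rose in all 3 pairs was not counted.

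**Figure D5:**
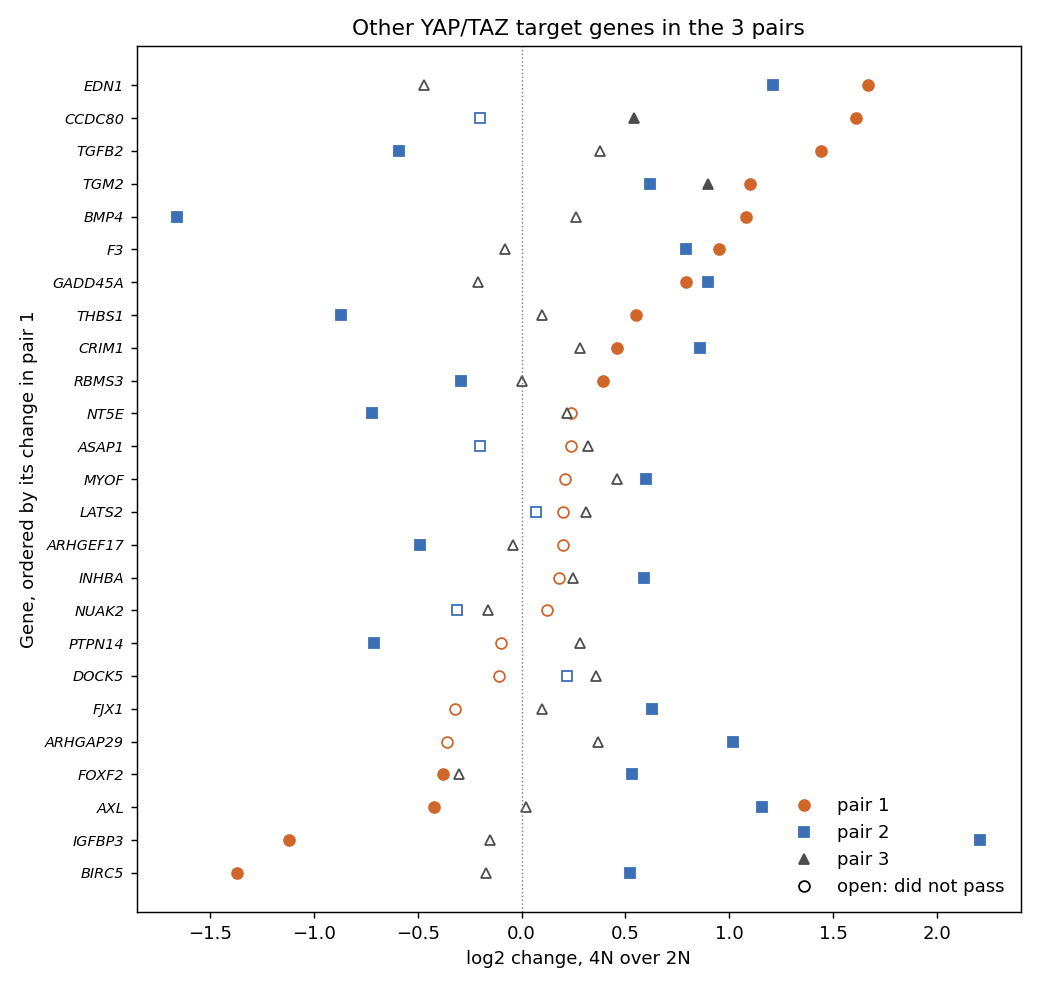
Change (log2, 4N minus 2N) of the 25 other target genes in pair 1 (orange circles), pair 2 (blue squares) and pair 3 (grey triangles), ordered by pair 1; filled symbols passed the test and open ones did not. TGM2 is filled in all 3 pairs (1.10, 0.62 and 0.90), and BMP4 (1.08 and -1.66) and IGFBP3 (-1.12 and 2.21) lie on opposite sides of 0 in pairs 1 and 2.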

How the data were processed

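The authors deposited 1 table of RPKM values (reads per kilobase of gene and M reads). Per the submitters' processing notes, CASAVA 1.8.2, TopHat2, edgeR and hg19 were used; the annotation and the use of strand are not given in the sources used here. Per the labels' protocols, libraries were polyA, made with a stranded kit. For 21630 of 24763 matched genes with over 50 reads (87.3%), the length implied by the RPKM was the genomic span within 0.5%. Whole reads were recovered from the steps of the values (100% of 561688 values above 0 whole within 0.01 reads). Symbols and positions are of GENCODE v29 (GRCh38), not hg19.

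Genes that reached 10 reads in at least 3 libraries were fitted with limma 3.58.1 (R 4.3.3, trend) on log2(reads per M + 0.1), clone means of all 18 libraries, two-sided, Benjamini-Hochberg over 23416 genes. Fits across clones used clone means with the pair as a block. The fit was tested on simulated data. The members and lists were chosen with earlier results of these data known. Named genes are the 10 genes, the 3 largest rises and falls past the threshold per list and pair, and the 3 genes most like each of ANKRD1, CYR61 and CTGF (mean of 5 reads per M or more, clone means spanning 1 or more on the log2 scale). Alternatives were other pseudocounts, scaling, filters, RPKM, limma-voom, single pairs, a replicate block and leaving out libraries. CYR61, TEAD1 and TEAD4 had no promoter entry. Protein sequences were not used here. The 25 target genes analysed leave out 1 gene of the list, on which nothing is reported here.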

Additional observations from a re-analysis of the deposited data

Results flagged for a closer look

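The change between a tetraploid clone and its diploid partner differed between the 3 pairs for 5 of the 10 genes, by a moderated F test of the difference in limma. For ANKRD1 the changes were 1.78, 0.11 and -0.34 in pairs 1, 2 and 3 (limma adjusted p = 1.15e-07). CYR61 changed by 1.27, -0.41 and -0.92 (limma adjusted p = 1.18e-08), and CTGF by 1.30, 0.21 and -0.84 (limma adjusted p = 7.82e-09). AMOTL2 had changes of 0.26, 1.30 and 0.05 (limma adjusted p = 3.25e-05) and AJUBA of 0.33, 0.94 and -0.10 (limma adjusted p = 2.66e-06). Each of the 5 also passed without library A of 2N-3. Such a difference was seen for 41.4% of all genes tested.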

How the results depend on the processing

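In pair 2, where 2 of the 10 genes fell, 1 fell with median-ratio scaling, without the filter on reads, on log2(RPKM + 0.5) and with the replicate block. The gene lost was WWTR1 (limma adjusted p = 0.0703, 0.0811 and 0.0697 with scaling, no filter and block), which the RPKM filter left out. In pair 1, where 1 fell, 0 fell on RPKM, whose filter leaves out TEAD4, and 2 fell with only the libraries of the pair or with library A of 2N-3 left out together with library C of 4N-3, an alternative chosen after seeing the data. With both left out, 5 rose in pair 2, 1 rose in pair 3 (AMOTL1, 0.17, limma adjusted p = 0.0429) and 8 differed between pairs. Leaving out 1 library at a time, 4 to 6 rose and 0 to 1 fell in pair 1, 3 to 5 rose and 1 to 3 fell in pair 2, 0 to 3 rose and 2 fell in pair 3, and 5 to 8 differed between pairs. No change that passed turned its sign in any of these fits. Besides the fit of all 18 libraries, shares of all genes were counted only without library A of 2N-3, and not for its F test. The rises of ANKRD1, CYR61 and CTGF in pair 1 and of AMOTL2 and AJUBA in pair 2, and the falls of CYR61 and CTGF in pair 3, passed in every fit that left out 1 library. The labels do not say that letters A, B and C pair libraries. Same-letter correlations were 0.19, 0.42 and 0.50 in pair 2, but pairs 1 and 3 had values down to -0.03 and -0.26, and 10 of 18 libraries matched their own letter best, so pairing was not taken as given. Among the 10 genes the replicate block changed the call of WWTR1 alone. With it, 6 of the Hippo list rose in pair 2 (8 without) and 0 in pair 3 (1), and of the target list 9 rose and 3 fell in pair 1 (10 and 4) and 1 rose in pair 3 (2). Median-ratio scaling moved the median change of all genes by under 0.1 (log2) in each pair. The cause of these shifts was not tested beyond the filters named. WWTR1, TEAD1, TEAD4 and AMOTL1 have long introns and failed the RPKM filter, so their values rest on recovered reads.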
